A study of Mus musculus with 6 samples.

Results

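In untreated mouse embryonic stem cells, sites of contact between JARID2 and RNA were spread along nearly the whole of Ctbp2, and after retinoic acid few sites were listed there. The Ctbp2 sites are those on the minus strand of chr7:140177000-140316500 (build mm9), a window of 139.5 kb in which the 5′ end of the gene is at the higher coordinate. This window holds 142 of the 28728 sites listed in the series, 134 in the list of untreated cells and 8 in the list of cells given retinoic acid. Ctbp2 was chosen by these counts of sites in the 2 lists, so the counts are given as a description and no test is attached to the difference between the lists.

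CTBP2 (C-terminal binding protein 2) is a transcriptional corepressor. It does not bind DNA itself but is brought to genes by zinc finger repressors, and it carries histone deacetylases and demethylases there. The gene also makes RIBEYE, a structural protein of synaptic ribbons, from an alternative promoter. JARID2 is a subunit of some forms of the Polycomb complex PRC2, a histone methyltransferase that keeps developmental genes silent, and it can bind RNA.

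All cells were E14, a line of mouse embryonic stem cells, kept with serum and LIF, the cytokine that holds such cells in the pluripotent state. The untreated group had 3 libraries, and the retinoic acid group had 3 libraries of cells given 2 µM retinoic acid, an inducer of differentiation, for 24 h. In every library cells took up 500 µM 4-thiouridine for 2 h and were irradiated at 312 nm with 400 mJ/cm2, and JARID2 was immunoprecipitated with the laboratory's own antibody from whole cell extract (PAR-CLIP, which crosslinks protein to RNA at the modified base). For each condition the 3 libraries are pooled in a single deposited list. The spread between libraries therefore cannot be measured, and sites of 1 transcript are not replicates of a condition. Intervals below are exact 95% binomial intervals and cover counting error only.

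The lists differ in length, with 23380 sites untreated and 5348 after retinoic acid, a ratio of 4.37. The sources used here do not say what the deposited score of a site counts, and the read depth of each library is unknown. Summed scores were 6580243 and 4702962 over the whole lists, a ratio of 1.40. Median scores were 17 and 23, far below the means of 281 and 879. The highest scores were 480704 and 448416, so the sums lean on the highest-scored sites.

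In untreated cells, Ctbp2 carried 0.573% (interval 0.480 to 0.678) of all listed sites, or 1 site in 174. After retinoic acid it carried 0.150% (0.0646 to 0.295). The number of sites on the gene was 16.8 times higher untreated than treated, beside 4.37 for the lists, so its share of the list was 3.83 times higher untreated. Among the 489 regions of at least 10 sites, formed from sites of both lists that follow each other on a strand with at most 10 kb between them, 178 (36.4%) had a share at least 2-fold lower after retinoic acid. The lists hold no RNA levels, so a smaller amount of Ctbp2 RNA, fewer cells that make it and fewer contacts per RNA cannot be told apart.

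The sites stood alone on their strand. The window's outermost untreated sites were chr7:140313785-140313795 at the 5′ end and chr7:140177558-140177587 at the 3′ end, 136.238 kb from end to end. The next untreated minus-strand sites lay 274 kb beyond the 3′ end and 602 kb beyond the 5′ end, and the next retinoic acid sites 752 kb and 639 kb beyond that list's own outermost sites in the gene. Neither list had a site on the opposite strand within the window, which allows a share of up to 0.0128% of the untreated list and 0.0561% of the retinoic acid list.

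The span of the untreated sites was close to the length of the gene in a later annotation. No mm9 annotation was used, so the link between window and gene is that of the given coordinates, and no site was placed in an exon, an intron or a UTR. In GENCODE M21 (GRCm38), Ctbp2 (ENSMUSG00000030970.16) lies on the minus strand of chromosome 7 and is 136.792 kb long, with 20 transcripts, and 4.55% of its length lies in an exon of any of them. One coding transcript, ENSMUST00000033269, has 11 exons and 3 long introns of 41.3, 55.9 and 26.4 kb, in that order from its 5′ end, and its other 7 introns are 0.239 to 3.44 kb long. The same annotation has other minus-strand genes over Ctbp2. They are Fgfr2, a fibroblast growth factor receptor, and B930086L07Rik, an uncharacterised locus of 3738 bases. The annotated extent of Fgfr2 is 2960900 bases and covers 99.3% of Ctbp2. Sites of these RNAs cannot be told apart from those of Ctbp2 by position and strand. Zranb1 ends 1171 bases from Ctbp2 on the opposite strand.

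Untreated sites were densest at the 5′ end. In windows of 10 kb counted from the 5′ edge, the first held 22 untreated sites and the second held 15. The next windows held 9 and 4 sites, and were followed by 3 fuller windows of 14, 17 and 12. Beyond these stood windows of 8, 4, 10 and 3 sites and then 1 of a single site, the lowest of all. The last 2 windows held 7 and 8, so the 3′ end of the gene had sites again after the thin stretch.

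**Figure D1:**
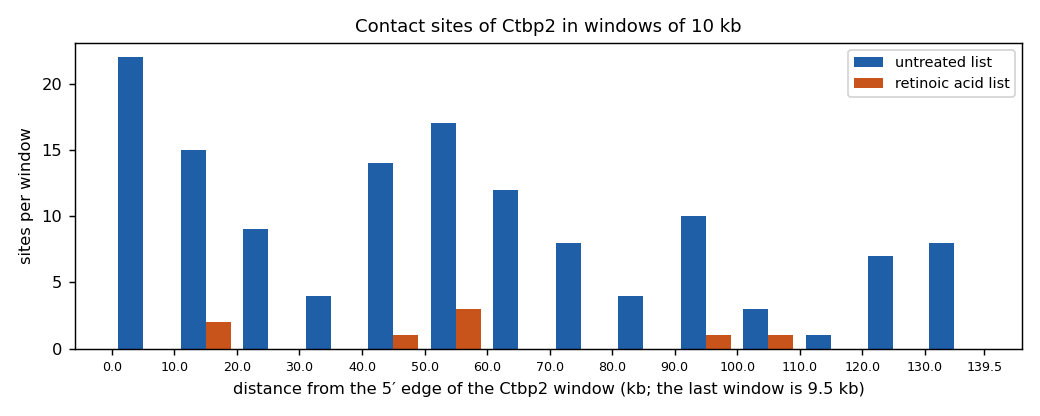
Bars give the number of JARID2 contact sites in windows of 10 kb from the 5′ edge of the Ctbp2 window (kb on the x axis), in blue for the untreated list and in orange for the retinoic acid list. Untreated counts peak at 22 in the first window and again at 17 between 50 and 60 kb, and no window holds more than 3 retinoic acid sites.

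In 5 equal parts of the window, from the 5′ end to the 3′ end, untreated sites numbered 45, 28, 30, 15 and 16. Of the 134 sites, 92 lay nearer the 5′ edge than the 3′ edge (68.7%, interval 60.1 to 76.4), and these had 61.6% of the summed score. This share changed little among the better-scored sites, with 66.7% for sites scored at least 20.

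Neighbouring untreated sites were separated by a median of 632 bases from the end of 1 site to the start of the next (quartiles 175 and 1278). Of the 133 gaps, 90 (67.7%) were of at most 1000 bases and 2 were longer than 5000 bases. The longest stretch without a site ran for 8071 bases, chr7:140199638-140207708, in the thin stretch described above. The second longest, of 6017 bases, lay on the 3′ side of the site that starts at 140229955.

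Some sites came in tight pairs, with 17 of the 133 gaps (12.8%) of at most 100 bases. Whether this exceeds what random placement at this density would give was not tested. Sites at most 100 bases apart formed 15 clusters with 32 sites in all, and the largest clusters had 3 sites each. Of the clusters, 8 lay between 4.73 and 12.4 kb from the 5′ edge. The strongest was chr7:140310756-140310783, with a site scored 151 and, 3 bases further, a site scored 123, both in the same read group.

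Untreated Ctbp2 sites had low scores, much like the list as a whole. Their median was 16 (quartiles 12 and 26), beside 17 (12 and 30) in the whole untreated list. Scores under 10 were held by 20 sites (14.9%) of the gene and by 7.90% of the list, and scores of at least 100 by 3 sites (2.24%, interval 0.464 to 6.40) of the gene and 8.09% of the list. Ctbp2 thus had a larger share of its sites at the low end and a smaller share at the high end than the list, without a test of either difference. The smaller share at the high end was not particular to Ctbp2. Over the 489 regions of at least 10 sites, the median share of untreated sites scored at least 100 was 0%, and 63.2% of regions were below Ctbp2. Site length had a median of 12.5 bases (range 5 to 56), beside 12 in the list.

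**Figure D2:**
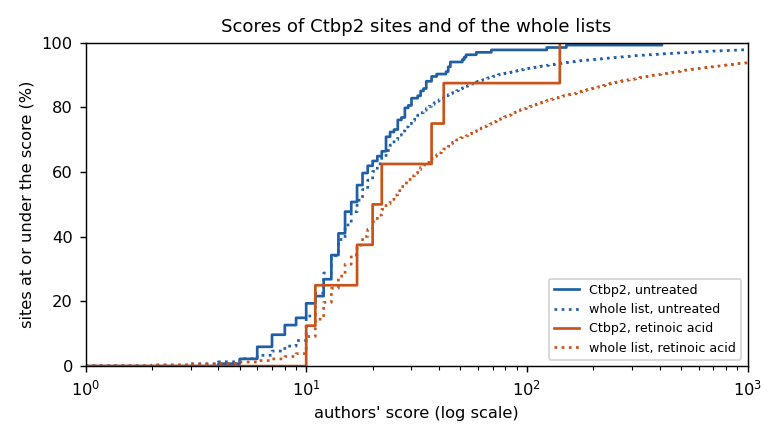
Cumulative percent of sites (y axis) at or under a score (x axis, log scale, shown up to 1000) for Ctbp2 (solid) and the whole list (dotted), untreated in blue and retinoic acid in orange. The untreated Ctbp2 curve lies above that of its list at a score of 9, with 14.9% and 7.90% of sites, near it between 12 and 16, and above it again at high scores, where 2.24% of Ctbp2 sites and 8.09% of the list reach 100.

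The highest-scored untreated site of Ctbp2 was chr7:140217477-140217490, 99.0 kb from the 5′ edge, with a score of 409. It exceeded 96.5% of the list and carried 12.5% of the gene's summed score of 3273. The second and the third were the adjoining pair near the 5′ end, scored 151 and 123. After these 3 the scores dropped to 69 at chr7:140232076-140232086 and 59 at chr7:140263539-140263549. The sixth to the eighth sites were scored 53 at chr7:140272010-140272019, 52 at chr7:140179615-140179630 and 51 at chr7:140246262-140246273. The ninth and the tenth were both scored 45, at chr7:140309827-140309846 and chr7:140284881-140284890. High scores were thus scattered along the gene, from 5.72 to 137 kb from the 5′ edge, and the leading 3 sites, at 2 places, stood above the rest.

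The 8 retinoic acid sites lay within the inner part of the gene, between 12.4 and 103 kb from the 5′ edge. From the 5′ end, the first was chr7:140304109-140304117 with a score of 42, and the second was chr7:140299857-140299865 with 11. The next 4 stood close together between 49.7 and 58.9 kb, at chr7:140266788-140266797 with a score of 20, chr7:140264777-140264790 with 22, chr7:140259700-140259712 with 37 and chr7:140257624-140257639 with 10. After an empty stretch of 40146 bases came chr7:140217464-140217477 with 141, the highest treated score of the gene, and chr7:140213647-140213654 with 17. The first 10 kb, where untreated sites were densest, held no retinoic acid site, and neither did the last of the 5 equal parts, where 16 untreated sites were listed. With 8 treated sites in all, the interval of a share of 0% reaches 36.9% in either place. It holds the untreated shares of 16.4% and 11.9%, so a lack of treated sites at the ends is not shown.

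**Figure D3:**
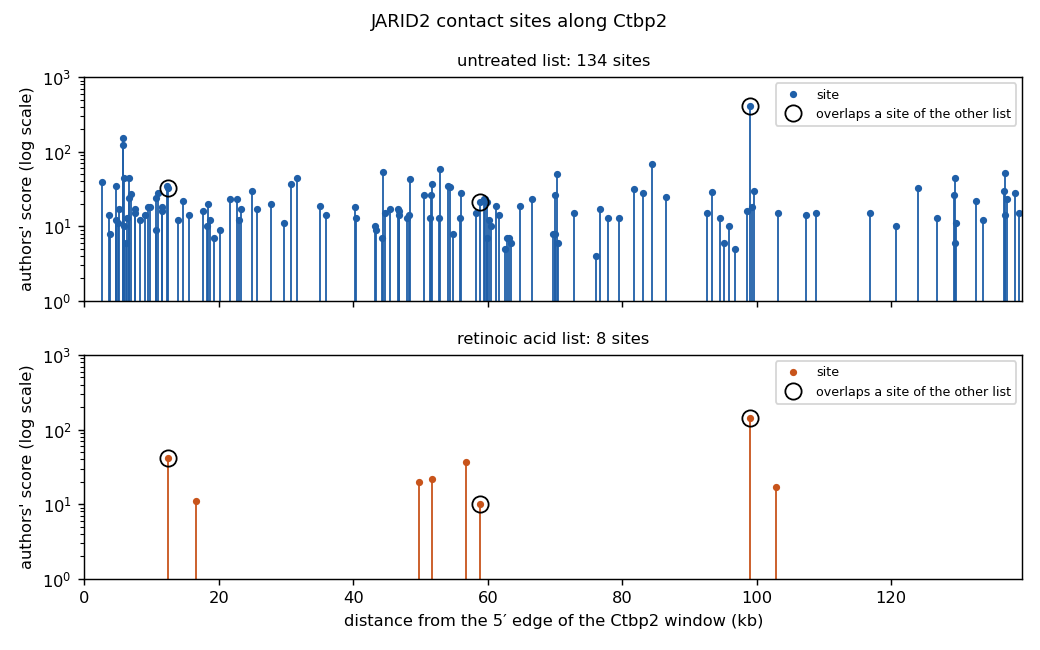
Each stem is a contact site, placed by its distance from the 5′ edge of the Ctbp2 window (kb), with the authors' score on a log axis, for the untreated list (top, 134 sites) and the retinoic acid list (bottom, 8 sites). Circles mark sites that overlap a site of the other list. The highest site of both lists, with scores of 409 and 141, lies near 99 kb.

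The highest-scored locus was at the same place in both lists. Treated sites shared at least 1 base with an untreated site in 3 of 8 cases (37.5%, interval 8.52 to 75.5), beside 27.3% over the whole retinoic acid list. The first shared locus was the leading one, where the sites overlapped by 1 base and were scored 409 untreated and 141 treated, a ratio of 2.90. At the second, chr7:140257634-140257642, they overlapped by 6 bases with scores of 21 and 10. The third, chr7:140304111-140304121 near the 5′ end, overlapped by 7 bases and went the other way, with 33 untreated and 42 treated. Over 1310 pairs of overlapping sites on nuclear chromosomes, the untreated score was a median of 1.25 times the treated score (quartiles 0.722 and 2.04).

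The other 5 treated sites were near untreated sites. One lay 58 bases from the untreated site chr7:140264849-140264859, and 1 lay 291 bases from chr7:140213342-140213355. The distances of the remaining 3 were 742, 801 and 983 bases. All 8 treated sites were thus within 1 kb of an untreated site, on a gene where untreated sites lay 1.02 kb apart on average. In the other direction, 3 of 134 untreated sites (2.24%) overlapped a treated site, beside 6.28% over the untreated list.

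Whether Ctbp2 differed more in score or in sites turned on 1 locus and on the scale. The gene's summed score was 3273 untreated and 300 treated, a ratio of 10.9, beside 16.8 for the number of sites. The leading site carried 47.0% of the treated sum, and without the leading site of each list the sums were 2864 and 159, a ratio of 18.0. As a share of its list the gene's score was 0.0497% untreated and 0.00638% treated, a ratio of 7.80, beside 3.83 for its share of sites. The ratio of 7.80 depends on the highest-scored sites of the lists, on which the list sums lean. The median score was 21 treated (range 10 to 141) and 16 untreated, and the whole lists differed in the same direction. With a score of at least 20, Ctbp2 held 51 untreated and 5 treated sites, a ratio of 10.2 beside 3.22 for the lists at that score. Scores of 100 or more belonged to 3 untreated sites and 1 treated site, a ratio of 3.0 beside 1.74, so that its share of the list was 0.159% untreated and 0.0921% treated. Among sites scored at least 20, 76 of the 193 regions with at least 10 such sites (39.4%) had a share at least 2-fold lower after retinoic acid.

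The names of the sites carry a second measure. Each name holds the number of a read group, and these numbers ran in order along every strand, with 0 of 23326 neighbouring pairs running backward in the untreated list and 0 of 5302 in the retinoic acid list. Numbers without a listed site are skipped, so the step in number between sites gives how many read groups were numbered between them. No source used here names the program that numbered them, so this reading rests on the names alone. The highest number was 247324 untreated and 221592 treated, a ratio of 1.12, where the numbers of sites stood at 4.37. A listed site was held by 8.68% of the untreated and 2.12% of the treated numbers.

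On Ctbp2 the treated list had fewer numbers as well as fewer sites, with a smaller ratio for the numbers. The outermost untreated sites enclosed 589 read-group numbers, of which 130 (22.1%, interval 18.8 to 25.6) held a site. The outermost treated sites enclosed 129 numbers, of which 8 (6.20%, 2.72 to 11.9) held a site. In both lists a larger share of numbers held a site on Ctbp2 than over the list. The gene was chosen by its sites and each stretch begins and ends with a site, so this is a description only. Between the same outermost shared loci, which lie 86.6 kb apart, the untreated list passed 417 numbers and the treated list 121, a ratio of 3.45. Over that stretch the sites, both ends included, numbered 85 and 7, a ratio of 12.1.

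**Figure D4:**
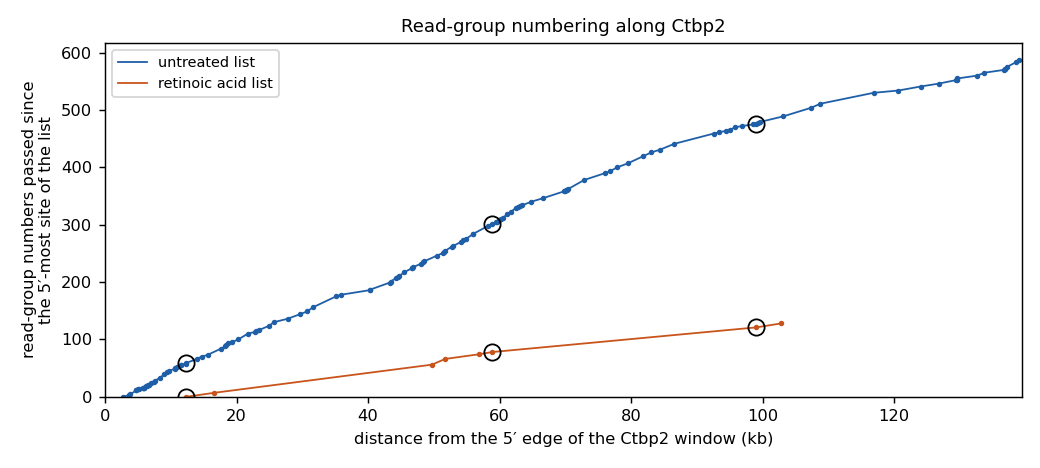
Read-group numbers passed since the 5′-most site of each list (y axis) against distance from the 5′ edge of the Ctbp2 window (kb), with a point per site and circles at the shared loci. Between the outer circles the untreated line (blue) climbs by 417 numbers and the retinoic acid line (orange) by 121.

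Between shared loci, the ratio of numbers on Ctbp2 was above that of the stretches on either side and of the other regions measured in that way. From its 5′-most shared locus to the next shared locus on the strand, 9259 kb away, the lists passed 361 and 299 numbers, a ratio of 1.21. Toward the 3′ side, over 2586 kb, they passed 211 and 119, a ratio of 1.77. Both stretches include an end of the gene, which held 59 of the 361 untreated numbers on the 5′ side and 112 of the 211 on the 3′ side. Over the whole minus strand of chromosome 7 the ratio was 1.23. Among 25 nuclear regions with shared loci at least 10 kb apart and at least 10 treated numbers between them, the median ratio was 1.45 (quartiles 1.21 and 1.68). Ctbp2 had the highest value of the 25 and the next region had 2.50. The chromosome 1 and chromosome 13 regions compared below did not meet these limits and were not ranked. Between the outermost sites of each list their ratios were 3.92 and 6.82, beside 4.57 on Ctbp2. Because numbers and sites come from the same libraries and the same contrast that chose the gene, this is a description.

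Along the gene, untreated read groups thinned only in the last 2 of 5 stretches, whereas sites were already fewer after the first. In 5 stretches of 25.0 to 30.1 kb from the 5′ end, there were 5.43, 5.23, 5.26, 3.30 and 2.56 numbers per kb. Sites per 10 kb in the same stretches were 17.6, 10.3, 10.7, 5.83 and 5.31. The first stretch differed from the next 2 in the share of numbers with a site, which was 30.9% there and 19.7% and 19.6% in those, at nearly the same density of numbers. In the last 2 stretches that share was 17.6% and 19.5%.

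Ctbp2 had the longest span of the 489 regions of at least 10 sites, whose median span was 21.6 kb. Its 134 untreated sites ranked number 3, after a mitochondrial region and a region of chromosome 1. Its density was less exceptional, at 9.84 untreated sites per 10 kb beside a median of 7.30, with 61.1% of regions below it. Among the 47 of these regions that spanned at least 50 kb, the median density was 4.62 (quartiles 2.98 and 6.51) and Ctbp2 ranked number 6. Its ratio of untreated to treated sites, 16.8, ranked number 10 among the long regions with a treated site, where the median was 8.04 and the upper quartile 15.4. One of the 47 had no treated site.

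For comparison, the 3 long regions nearest to Ctbp2 in number of untreated sites were taken, so their untreated counts are close by choice. Their treated sites numbered 5 to 8, beside 8 on Ctbp2. On the minus strand of chr19:4758489-4811440, 125 untreated and 8 treated sites spanned 53.0 kb, with a median gap of 249.5 bases. On the minus strand of chr1:183830983-183948891, 167 and 5 sites spanned 118 kb, with a median gap of 445.5 bases. On the plus strand of chr13:44826790-44903136, 93 and 8 sites spanned 76.3 kb, with a median gap of 488.5 bases. Ctbp2, with 632 bases, was the most widely spaced of the 4 and had the longest span. Over the 47 regions of at least 50 kb the median of this gap was 1485.5 bases, and Ctbp2 ranked number 40 from the widest.

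Untreated scores had similar medians, and treated scores were more varied. Untreated medians were 17, 19 and 22 in the order above and 16 on Ctbp2, and the highest-scored sites had 758, 310 and 545 there and 409 on Ctbp2. Treated medians were 31.5, 19 and 16 beside 21 on Ctbp2, and the highest treated scores were 74, 143 and 20 beside 141. Of the treated sites, 3 of 8, 1 of 5 and 2 of 8 overlapped an untreated site, beside 3 of 8 on Ctbp2. Read groups that held a site made up 30.7%, 27.9% and 25.7% of untreated numbers, above the 22.1% of Ctbp2. Of treated numbers they made up 5.63%, 3.62% and 16.3%, beside 6.20%. Between the outermost sites of each list, whose ends differ between lists, the ratios of numbers were 2.48, 3.92 and 6.82, and Ctbp2 with 4.57 lay among them. The ratio of numbers between shared loci could be measured for the chromosome 19 region, at 1.46, beside 3.45 on Ctbp2. No gene is named for these regions, since no mm9 annotation was used.

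**Figure D5:**
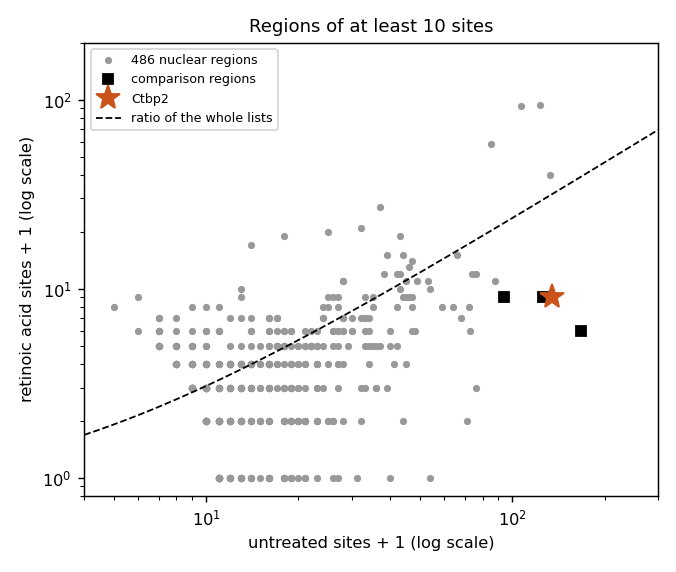
Each grey point is a nuclear region of at least 10 sites, with its untreated sites (x axis) and retinoic acid sites (y axis), both plus 1 on log scales. The star is Ctbp2 (134 and 8 sites), squares are the 3 comparison regions, and the dashed line is the ratio of the whole lists. Ctbp2 and the squares lie below the line.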

How the data were processed

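Site lists of JARID2 PAR-CLIP were analysed, 1 per condition. Each pools 3 libraries, per the labels, and gives chromosome, start, end, read-group name, strand and a score. The unit is the authors' score as deposited, a whole number that no source used here defines. Bowtie and build mm9 are named per the submitters' processing notes, and no source used here names the site caller.

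All sites were kept, and starts are written from 1. Sites of the lists were shared when they had 1 or more bases in common, strand included. Regions join sites of both lists across gaps of up to 10 kb. Read-group numbers were read from the names, a step chosen after the data were seen. Counts by part of the gene, and the figures, use the middle of a site. Distances given for single sites run from the 5′ edge of the window to the 5′ end of the site. No test was run, because each condition has 1 list and the gene was chosen on it. The gene, the lists and the rules were chosen with earlier results of these data known. Named sites are every treated site, the 10 highest-scored untreated sites (ties from the 5′ end), the outermost sites, the windows with the most and the fewest sites, the longest gap and the 3 regions of at least 50 kb nearest in untreated sites. The second longest gap, the close pairs and the untreated neighbours of treated sites are named outside this rule, after their values were seen. A list of CtBP partner genes, and the sequence and annotation of sites, needed mm9 references and were not analysed here. Functions were tested on simulated data. Python 3.11.15, numpy 2.4.6, pandas 2.3.3, scipy 1.17.1 and matplotlib 3.10.9 were used.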

Additional observations from a re-analysis of the deposited data

How the results depend on the processing

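Other score minimums, joining distances and overlaps left 24 values within their interval or within 1.5 times and moved 9, and 4 other ways to count read-group numbers, added after the data were seen, moved none. Untreated Ctbp2 sites numbered 134 in all, 51 with a score of at least 20 and 3 with at least 100, and treated sites numbered 8, 5 and 1. The gene's share of the untreated list was 0.573%, and 0.159% among sites scored at least 100, where the treated share was 0.0921% and the ratio of shares 1.72 in place of 3.83. The treated summed score was 300, and 159 without its leading site. Shared treated sites numbered 3 of 8, 1 when 50% of both sites had to overlap and 8 within 1 kb. The median untreated gap was 632 bases, and 1333 among sites scored at least 20. The ratio of read-group numbers was 3.45, and 3.12 without the locus that shares 1 base. No paired analysis was possible because the lists pool the libraries, and for the same reason no library could be left out. Read depth is unknown, so a site missing from the treated list may not have been detectable at its depth and is not shown to be absent.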

Other observations

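Ctbp2 read groups were dense against their surroundings in both lists. Between the outermost shared loci there were 4.81 untreated and 1.40 treated read-group numbers per kb. From the 5′-most of these loci to the next shared locus on the strand there were 0.0390 untreated and 0.0323 treated numbers per kb, and toward the 3′ side 0.0816 and 0.0460. Both outer stretches include an end of the gene, with 59 of 361 untreated numbers on the 5′ side and 112 of 211 on the 3′ side. Such density was not particular to Ctbp2. Over its whole span it had 4.32 untreated numbers per kb, beside 6.65, 4.59 and 4.37 in the comparison regions of chromosomes 19, 1 and 13.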
